A study of Mus musculus with 6 samples.

Results

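The lysyl oxidases Lox, Loxl1, Loxl2, Loxl3 and Loxl4, the lysyl hydroxylases Plod1, Plod2 and Plod3, and the procollagen C-proteinase enhancers Pcolce and Pcolce2 are the genes described here. They were chosen by symbol for their place in collagen crosslinking and procollagen processing, and each symbol matched 1 row among the 22162 genes of the table. All 10 passed the filter on low values. RNA-sequencing compared mouse skin fibroblasts (MSFs) labelled senescent with MSFs labelled non-senescent, 3 libraries in each group. The MSFs came from the dorsal skin of 1 FASST mouse of the FVB/N strain. In FASST cells a tamoxifen-inducible Cre (Cre-ERT2) is driven by the pro-alpha 2(I) collagen promoter, and Cre removes a stop cassette before p27Kip1 and GFP at the ROSA26 locus. Both groups carried both alleles and grew in DMEM with serum at 3% oxygen and 5% carbon dioxide. The TAM group received 10 µM tamoxifen for 48 h and the EtOH group received the ethanol vehicle, so the alleles, the serum and the low oxygen were common to both and tamoxifen itself was not.

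Collagen is modified inside the cell and again outside it. The PLOD enzymes hydroxylate lysines of procollagen in the endoplasmic reticulum, and these hydroxylysines later carry sugars and form the more stable crosslinks. After secretion the enhancer proteins speed the removal of the carboxy-terminal propeptide by BMP1-type proteinases, and the lysyl oxidases then oxidize lysines and hydroxylysines of collagen and elastin into the aldehydes from which crosslinks form. In skin, crosslinked fibrillar collagen made by fibroblasts gives the dermis its strength.

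The labels were first checked against the data. Cdkn1b, which encodes p27Kip1, had 1427, 3074 and 1853 normalized counts in EtOH replicates 1, 2 and 3 and 1699, 1520 and 1630 in TAM replicates 1, 2 and 3. The groups overlapped, so this gene did not separate them. Whether the p27Kip1 of the ROSA26 allele is of mouse sequence is not given in the sources used here, so its transcripts may not be counted on this gene and the check does not settle the labels. TAM and EtOH therefore stand below for the libraries so labelled. The fibroblast markers were abundant in every library, with a summed level of 1531130 to 1679930 normalized counts in EtOH and 684804 to 1127040 in TAM. Most of each sum came from Col1a1, Col1a2 and Col3a1, which all lay wholly lower in TAM. Of the other markers, Dcn and Lum lay wholly lower in TAM and Thy1 wholly higher, while Pdgfra, Pdgfrb and Vim overlapped. Keratinocyte markers summed to at most 73.9 normalized counts, with Krt1 at 0 in all 6 libraries, and macrophage markers to at most 426, with Emr1 at 0 in all 6. Endothelial markers summed to 85.9 to 241 normalized counts in EtOH and 15.7 to 34.3 in TAM, and only Kdr of them passed the filter. Smooth muscle and pericyte markers summed to 17291 to 55800 in EtOH and 26045 to 102015 in TAM. Most of this was Acta2, at 16500 to 55325 in EtOH and 25369 to 99588 in TAM, with overlapping groups. Des held at most 12.0 and Rgs5 at most 60.3 normalized counts, Cspg4 overlapped and Myh11 lay wholly higher in TAM. Adipocyte markers summed to 12.2 to 338 in EtOH and 36.9 to 103 in TAM. Kdr, an endothelial receptor, had 205, 68.7 and 116 normalized counts in EtOH and 4.84, 7.53 and 14.0 in TAM (limma log2 fold change -3.71, adjusted p = 0.0608, which fitting the replicate number as a block brought to 0.0488). All its TAM values lay below the minimum of the filter on low values, which Kdr passed through its EtOH libraries alone. No conclusion is therefore drawn from its adjusted p with the block. Without both replicate 2 libraries Kdr did not pass the filter and was not tested. The part of these markers in the results below was not tested. In a bulk sample fewer cells of a type and less RNA per cell cannot be told apart. Both replicate 2 libraries stood apart from the other libraries of their group, with the lowest library weights (0.292 in EtOH and 0.288 in TAM, against 0.931 to 4.06 in the other 4). The fold changes of the 10 genes and the list medians are given with and without them.

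The coding bases of the copper-binding segment of the catalytic domain are shown for 4 of the lysyl oxidases, because the family is compared below by level and its members share this segment. Each stretch holds 33 bases and runs over an exon junction, with 23 bases in the first of its exons, and capitals mark the 13 positions at which the 4 genes are not all alike. Coordinates are mm9 and cover the intron.
Loxl1 (chr9:58141527-58142188, minus strand, exons 3 and 4 of Loxl1-201): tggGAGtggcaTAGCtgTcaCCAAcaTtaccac
Loxl2 (chr14:70082123-70088844, plus strand, exons 10 and 11 of Loxl2-201): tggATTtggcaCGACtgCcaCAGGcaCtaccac
Loxl3 (chr6:82999989-83000119, plus strand, exons 10 and 11 of Loxl3-001): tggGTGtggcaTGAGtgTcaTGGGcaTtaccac
Loxl4 (chr19:42673297-42674389, minus strand, exons 11 and 12 of Loxl4-004): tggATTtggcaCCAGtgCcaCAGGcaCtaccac
Loxl2 and Loxl4 were the closest pair, with 31 of the 33 bases identical, and Loxl1 and Loxl4 the most distant, with 21. The 4 remaining pairings of these genes had 22 to 25 identical bases.

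Plod2 has a 63-base exon that 1 of its 2 annotated coding transcripts holds. It is shown because PLOD2 (lysyl hydroxylase 2) hydroxylates the telopeptide lysines of collagen, and the long form that includes this exon is the form known for that activity. The counts were made per gene, so the forms with and without the exon cannot be told apart in these data.
Plod2 (exon 14 of Plod2-002, mm9 chr9:92496823-92496885, plus strand): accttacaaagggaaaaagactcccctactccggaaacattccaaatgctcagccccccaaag

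The levels of the 10 genes spanned a wide range when divided by exon length. Lox was the most abundant in both groups, with 11950 ± 1650 normalized counts per kb of exon (SD, n = 3) in EtOH and 14793 ± 2493 in TAM. In EtOH it was followed by Pcolce (5085 ± 293), Loxl2 (3250 ± 595), Loxl1 (2148 ± 615), Plod1 (2052 ± 1320), Plod2 (1110 ± 343), Plod3 (450 ± 30.1), Loxl3 (149 ± 20.2), Loxl4 (21.9 ± 10.3) and Pcolce2 (17.8 ± 3.46). Of the neighbours in this order, Loxl2 and Loxl1, Loxl1 and Plod1, Plod1 and Plod2, and Loxl4 and Pcolce2 had overlapping library values. In TAM the order per kb was Lox, Loxl2 (5869 ± 1726), Pcolce (4038 ± 639), Loxl1 (3183 ± 363), Plod1 (853 ± 86.7), Plod3 (732 ± 200.5), Loxl3 (321 ± 172), Plod2 (248 ± 60.7), Pcolce2 (78.7 ± 12.9) and Loxl4 (55.8 ± 23.5). Here Loxl2 and Pcolce, Pcolce and Loxl1, Plod1 and Plod3, Loxl3 and Plod2, and Pcolce2 and Loxl4 overlapped. Plod2 thus stood above Plod3 per kb in each EtOH library and below it in each TAM library. The table gives Loxl3 a locus of 3383 bases that covers only the 5' part of the annotated gene, so its level per kb, which uses the exons of the whole gene, is less certain. The loci given for Loxl2 (to 70093053, annotated to 70095640) and Pcolce (to 138052636, annotated to 138055012) also stop short of the annotated gene. Their levels per kb are less certain for the same reason.

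**Figure D1:**
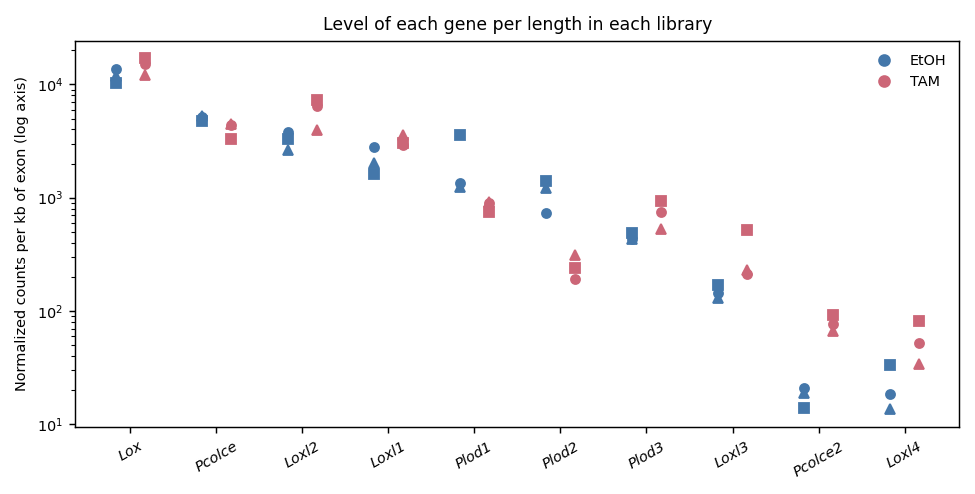
Level of each of the 10 genes as normalized counts per kb of exon, on a log axis, with 1 point per library (blue EtOH, red TAM; circle, square and triangle for replicates 1, 2 and 3). Lox lies highest in every library, and Plod2 lies above Plod3 in the 3 EtOH libraries and below it in the 3 TAM libraries.

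Between the groups, 1 of the 10 genes passed the test, Pcolce2, which rose 4.41-fold in TAM by the ratio of group means (limma, adjusted p = 0.0374). Across all genes tested 0.244% were called. With the replicate number as a block Plod2 was called too (adjusted p = 0.0237), a fall of 4.48-fold, and then 2 of the 10 were called against 1.62% of all genes tested. The TAM libraries lay wholly above the EtOH libraries for 6 of the genes (9.19% of all genes tested) and wholly below them for 3 (11.4%), and only Lox overlapped. Same-numbered libraries were also compared as pairs, though the labels do not say that they are. By these, 7 genes were higher in TAM in all 3 pairs (18.3% of all genes tested) and 3 were lower in all 3 (23.6%). At an unadjusted p under 0.05, 6 genes were higher (6.67% of all genes tested) and 2 were lower (6.7%). The median log2 fold change of the 10 genes was 0.63, and that of all 11877 genes tested was -0.03. A log2 fold change here is the difference of the group means of log2(normalized counts + 1), and adjusted p-values are Benjamini-Hochberg values over all genes tested.

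**Figure D2:**
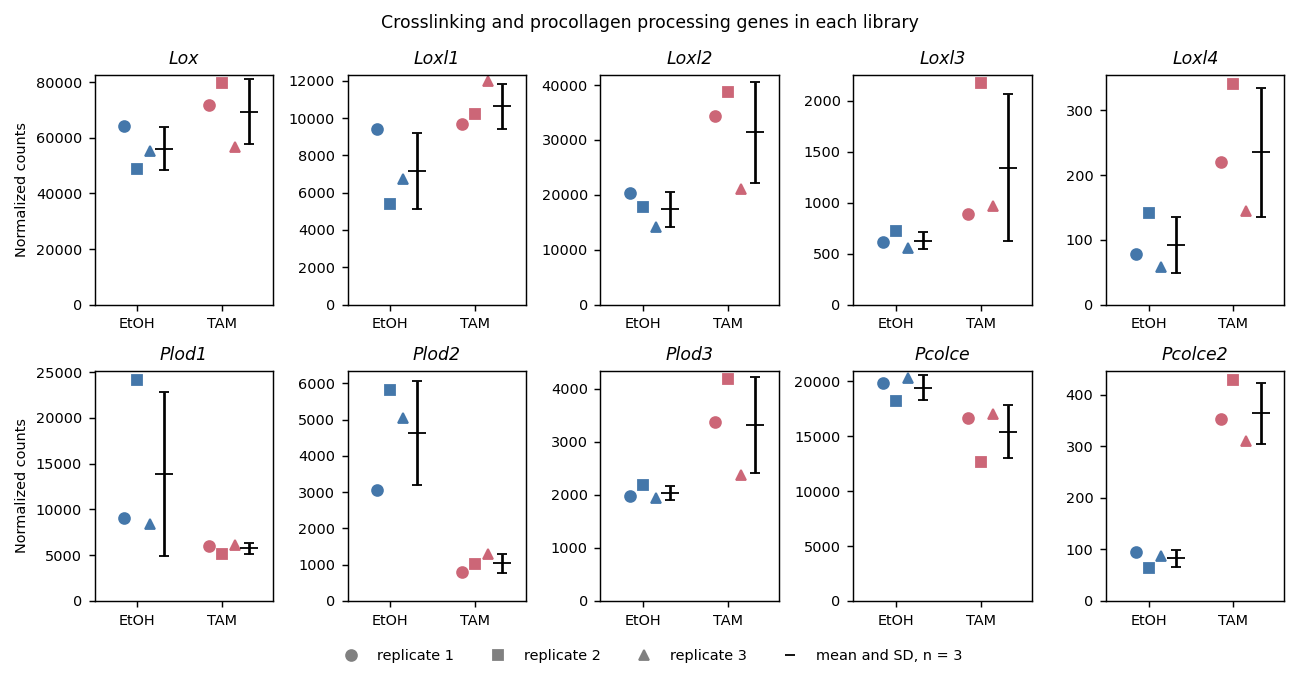
Normalized counts of each gene in every library, each panel on its own linear axis from 0, with EtOH in blue, TAM in red, symbols for replicates 1 to 3 and black bars for the mean and SD (n = 3). The groups overlap only for Lox, and EtOH replicate 2 lies far above the other libraries for Plod1.

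Of the 5 lysyl oxidases, 4 had TAM libraries that all lay above the EtOH libraries, and none passed the test. Lox, the founding member of the family and a crosslinker of both collagen and elastin, had 64198, 48741 and 55451 normalized counts in EtOH and 71789, 79866 and 56794 in TAM. TAM replicate 3 lay below EtOH replicate 1, and the log2 fold change was 0.30 ± 0.29 (SE; adjusted p = 0.702). Loxl1, which is needed for elastic fibre maintenance, had 9406, 5372 and 6730 normalized counts in EtOH and 9664, 10227 and 11988 in TAM. The lowest TAM and highest EtOH libraries of Loxl1 were close, and its log2 fold change was 0.60 ± 0.25 (adjusted p = 0.365).

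Loxl2, a secreted crosslinker of fibrillar and basement membrane collagen, had 20386, 17697 and 14047 normalized counts in EtOH and 34409, 38699 and 21012 in TAM. TAM replicate 3 lay just above the highest EtOH library and the other TAM libraries well above it. The log2 fold change of Loxl2 was 0.82 ± 0.31 (adjusted p = 0.317). Loxl3, which acts on collagen and elastin in developing skeleton and palate, had 610, 718 and 551 normalized counts in EtOH and 892, 2178 and 969 in TAM. Its TAM mean was set largely by replicate 2. The log2 fold change of Loxl3 was 0.99 ± 0.35 (adjusted p = 0.293). An exon overlap on the other strand joined 12.8% of its exon bases to Htra2, whose log2 fold change was 0.15 (adjusted p = 0.784), and since the strand setting of the counting is not given in the sources used here, the reads of the pair may not be fully separated.

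Loxl4 was the least abundant lysyl oxidase and had the largest log2 fold change among them. It had 78.7, 141 and 57.4 normalized counts in EtOH and 220, 341 and 145 in TAM. Replicate 2 was the highest library of each group, and the lowest TAM value lay just above the highest EtOH value. The log2 fold change of Loxl4 was 1.35 ± 0.43 (adjusted p = 0.258). The 3 same-numbered pairs differed by 1.47, 1.27 and 1.32 on the log2 scale, so the pairs spread less than the libraries of a group, and with the block its adjusted p was 0.0528. With the block and without both replicate 2 libraries it was 1.39 with an adjusted p of 0.0218, so Loxl4 then passed the test. That fit was added after seeing the data and called 855 of all 11520 genes tested in it. Without both replicate 2 libraries and without the block, the log2 fold changes were 0.10 for Lox, 0.44 for Loxl1, 0.67 for Loxl2, 0.68 for Loxl3 and 1.39 for Loxl4, and none was called.

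The lysyl hydroxylases did not move together, since Plod1 and Plod2 lay lower in TAM and Plod3 lay higher. Plod2 (mm9 chr9:92437061-92503266, plus strand) had 3047, 5827 and 5047 normalized counts in EtOH and 798, 1005 and 1303 in TAM, so the lowest EtOH library held 2.34 times the highest TAM library. Its log2 fold change was -2.14 ± 0.30 (95% interval -2.84 to -1.44), and 79 of the 11877 genes tested had a log2 fold change at or below it. The adjusted p of Plod2 was 0.0546 without the block. With the block, under which it fell, the SE was 0.19 and the adjusted p 0.0237. Without both replicate 2 libraries the log2 fold change was -1.94, with an adjusted p of 0.0930 without the block and 0.00469 with it. The fit giving the last value was added after seeing the data and called 855 of all 11520 genes tested in it. Leaving out any 1 library without the block gave adjusted p-values of 0.0734 to 0.232, none under 0.05.

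Plod1 (chr4:147283862-147310876, minus strand), the hydroxylase of helical lysines, had 9074, 24181 and 8386 normalized counts in EtOH and 6054, 5092 and 6156 in TAM. EtOH replicate 2 held 2.66 times the value of the next EtOH library, and the log2 fold change was -1.09 ± 0.41 (adjusted p = 0.316). Without both replicate 2 libraries it was -0.51. Plod3 (chr5:137462889-137472518, plus strand), which also transfers glucose onto galactosyl-hydroxylysine, had 1969, 2188 and 1940 normalized counts in EtOH and 3363, 4187 and 2377 in TAM. The EtOH libraries of Plod3 lay close together and all TAM libraries above them. Its log2 fold change was 0.67 ± 0.23 (adjusted p = 0.290), and 0.53 without both replicate 2 libraries. On the other strand 11.7% of the exon bases of Plod3 overlap Znhit1, whose log2 fold change was 0.04 (adjusted p = 0.946).

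The enhancers moved apart, with Pcolce2 higher and Pcolce lower in TAM. Pcolce2 (mm9 chr9:95538020-95598515, plus strand) had 95.9, 64.8 and 86.7 normalized counts in EtOH and 353, 428 and 311 in TAM, and the lowest TAM library held 3.24 times the highest EtOH library. Its log2 fold change was 2.13 ± 0.24 (95% interval 1.57 to 2.70), and 155 of the genes tested had a log2 fold change at or above it. The adjusted p was 0.0374 without and 0.0370 with the block. Leaving out any 1 library gave log2 fold changes of 1.97 to 2.25 with adjusted p-values of 0.0734 to 0.213, none under 0.05, and leaving out both replicate 2 libraries gave 1.85 with 0.0580. Pcolce (chr5:138046331-138052636, minus strand), the more abundant enhancer here, had 19827, 18178 and 20317 normalized counts in EtOH and 16645, 12625 and 17036 in TAM. The TAM libraries of Pcolce all lay lower, with a log2 fold change of -0.34 ± 0.22 (adjusted p = 0.560), and -0.25 without both replicate 2 libraries. On the same strand 2.93% of its exon bases overlap Fbxo24, a gene with at most 45.3 normalized counts. Per kb, Pcolce stayed the more abundant of the pair in every library.

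**Figure D3:**
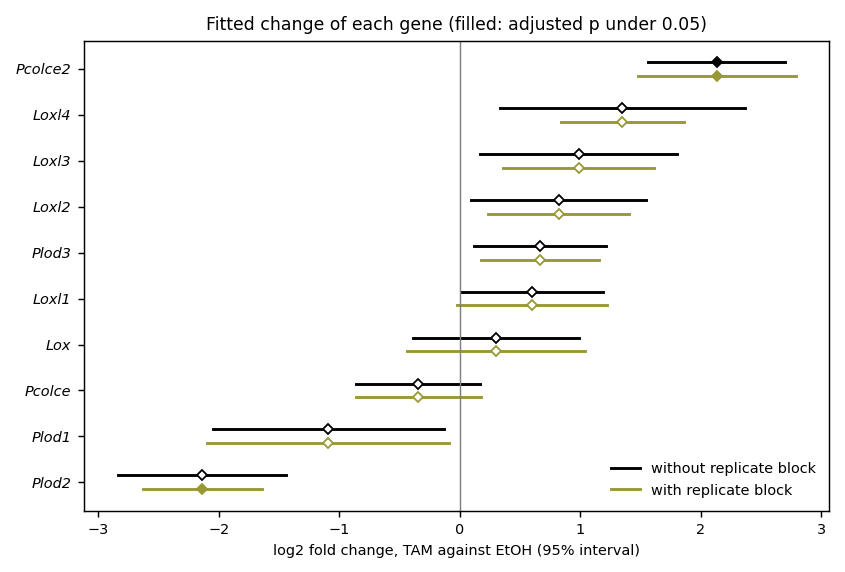
Log2 fold change of each gene, TAM against EtOH, from limma, with its 95% interval without the replicate block (black) and with it (olive), filled where the adjusted p is under 0.05. Pcolce2 is filled in both fits and Plod2 only with the block, at 2.13 and -2.14.

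Shares within a family were compared next, since a share is taken within a library and does not depend on how the library was scaled. The exact two-sided permutation test over libraries cannot go below p = 0.1 with 3 libraries against 3, and 10 shares were tested. The shares of a family are parts of the same sum, so they are not independent, and those of Pcolce and Pcolce2 mirror each other. Of the summed Plod level per kb, Plod2 made up 29.1%, 25.6% and 42.0% in EtOH and 10.4%, 12.5% and 17.8% in TAM. The groups did not overlap, and the means were 32.2% ± 8.64 and 13.6% ± 3.82 (SD, n = 3; exact permutation p = 0.1, adjusted 0.2). The share of Plod3 was 17.4%, 8.88% and 14.9% in EtOH and 40.7%, 48.3% and 30.1% in TAM, with means of 13.7% ± 4.38 and 39.7% ± 9.12 (SD, n = 3; exact permutation p = 0.1, adjusted 0.2). Plod1 made up 54.1% ± 11.2 in EtOH and 46.7% ± 6.70 in TAM (SD, n = 3; exact permutation p = 0.4, adjusted 0.444), and its groups overlapped. Without both replicate 2 libraries the difference in share was -21.4 percentage points for Plod2, 19.2 for Plod3 and 2.17 for Plod1, so that of Plod1 changed sign. The summed Plod level was 3612 ± 1605 normalized counts per kb in EtOH and 1833 ± 86.0 in TAM (SD, n = 3). The highest sum, 5453, was in EtOH replicate 2. Plod3 itself was 1.63-fold higher in TAM by the ratio of group means and was not called, so its larger share also reflects the lower sum.

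The lysyl oxidase family was dominated by Lox in both groups. Lox made up 66.8%, 66.9% and 71.1% of the family per kb in EtOH and 61.4%, 60.9% and 60.8% in TAM. The TAM shares were lower in every library and lay within 1 percentage point of each other (means 68.3% ± 2.47 and 61.1% ± 0.323, SD, n = 3; exact permutation p = 0.1, adjusted 0.2). Loxl2 was next with 18.6% ± 2.76 in EtOH and 23.9% ± 3.54 in TAM (SD, n = 3; exact permutation p = 0.2, adjusted 0.286), then Loxl1 with 12.1% ± 1.70 and 13.6% ± 3.92 (SD, n = 3; exact permutation p = 0.7, adjusted 0.7). Loxl3 and Loxl4 together stayed under 3% in every library. Of the summed enhancer level per kb, Pcolce2 made up 0.398%, 0.294% and 0.351% in EtOH and 1.72%, 2.73% and 1.48% in TAM (exact permutation p = 0.1, adjusted 0.2).

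**Figure D4:**
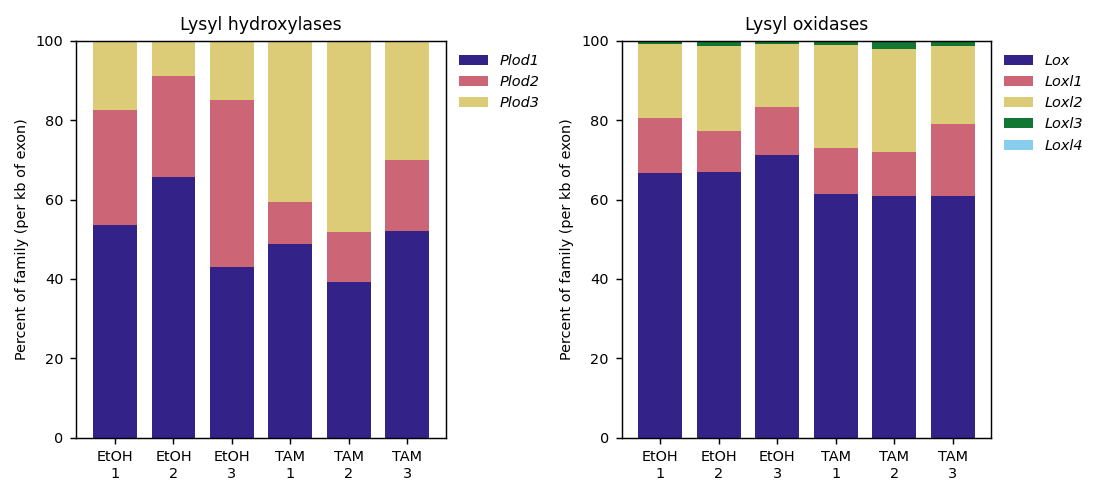
Share of each gene in the summed level of its family per kb of exon, as stacked percentages for each library, lysyl hydroxylases on the left and lysyl oxidases on the right. The Plod2 band narrows from a mean of 32.2% in EtOH to 13.6% in TAM and the Plod3 band widens from 13.7% to 39.7%; Loxl4 stays under 0.3% and is too thin to see.

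Each gene was also set against type I collagen, the main substrate, as the log2 of its value minus the mean log2 of Col1a1 and Col1a2 in the same library. Col1a1 had 515277, 568528 and 455064 normalized counts in EtOH and 423144, 301342 and 265665 in TAM. Col1a2 had 368914, 346134 and 400068 in EtOH and 255449, 178955 and 226507 in TAM. All TAM libraries of both chains lay lower, with log2 fold changes of -0.66 ± 0.48 (adjusted p = 0.606) and -0.77 ± 0.42 (adjusted p = 0.492), which did not pass the test. Against this substrate 8 of the 10 genes lay wholly higher in TAM, but so did 51.0% of all genes tested, so this count says little about these genes. Plod2 lay wholly lower, as did 0.674% of all genes tested. These 9 ratios were each at the smallest exact permutation p the design allows (0.1, adjusted over the 10 ratios 0.111). The log2 ratio was higher by 1.02 for Lox, 1.31 for Loxl1, 1.54 for Loxl2, 1.70 for Loxl3, 2.07 for Loxl4, 1.38 for Plod3, 0.37 for Pcolce and 2.85 for Pcolce2. The difference was -1.43 for Plod2, and Plod1 overlapped with a difference of -0.38 (exact permutation p = 0.7, adjusted 0.7), or 0.09 without both replicate 2 libraries. Without them the log2 ratio was still higher by 0.70 for Lox and 2.45 for Pcolce2, and the difference for Plod2 was -1.34. Pcolce thus lay lower in TAM in normalized counts and higher relative to type I collagen. These ratios share their denominator, so they are not independent of each other.

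The other genes of collagen biosynthesis were read from the same fit, and none of the 35 tested passed the test without the block. Of the 10 prolyl hydroxylation genes, all tested, 7 lay lower and 3 higher in TAM, with a median log2 fold change of -0.45 (-0.34 without both replicate 2 libraries). Leprel1, a prolyl 3-hydroxylase, had the lowest log2 fold change of the list (-1.99, adjusted p = 0.313). Without both replicate 2 libraries it was -3.03, with an adjusted p of 0.0927 without the block and 0.00806 with it. The fit with the block and without those libraries was added after seeing the data and called 855 of all 11520 genes tested in it. Leprel4, a partner of the lysyl hydroxylation complex, had the highest log2 fold change of the list (0.35, adjusted p = 0.588, and 0.03 without both replicate 2 libraries). Of 7 listed genes of glycosylation, folding and export 5 were tested, with a median of 0.21 (0.04 without both replicate 2 libraries), from Serpinh1, the collagen chaperone HSP47 (-0.51, adjusted p = 0.432), to Glt25d1, a collagen galactosyltransferase (0.27, adjusted p = 0.737). Of 6 procollagen proteinases 4 were tested, with a median of 0.10 (0.11 over the 3 that passed the filter without both replicate 2 libraries). Tll1, a BMP1-type proteinase, had 14.5, 266 and 12.2 normalized counts in EtOH and 60.0, 570 and 68.8 in TAM, with replicate 2 highest in each group and a log2 fold change of 1.82 (adjusted p = 0.606), and Adamts14, an amino-propeptidase, had -0.80 (adjusted p = 0.584).

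Of 11 fibrillar collagen genes 10 were tested, with a median log2 fold change of -0.41 (-0.44 without both replicate 2 libraries), 6 lower and 4 higher in TAM. Col5a3, a chain of type V collagen, had 1984, 3554 and 2271 normalized counts in EtOH and 649, 1401 and 782 in TAM. Its log2 fold change was -1.50 (adjusted p = 0.157), and with the block over all libraries it was the one gene of these lists that was called (adjusted p = 0.0291). With the block and without both replicate 2 libraries, Col5a3 (-1.57, adjusted p = 0.00688) and Col11a1 (-1.18, adjusted p = 0.0154) were called lower. In that fit Col27a1 (1.42, adjusted p = 0.0234) and, of the scaffold genes, Fmod (0.87, adjusted p = 0.0437) were called higher. Col27a1, a cartilage-associated fibrillar collagen, had the highest log2 fold change of the list (1.16, adjusted p = 0.242). Of the 6 genes of elastin and the scaffolds that place lysyl oxidases on their substrates, all tested, the median was 0.26 (0.31 over the 5 that passed the filter without both replicate 2 libraries). Efemp2, the fibulin that brings LOX to elastin, had 6173, 5221 and 5059 normalized counts in EtOH and 9383, 8598 and 7553 in TAM, with a log2 fold change of 0.63 (adjusted p = 0.232). Eln, tropoelastin, had 20.9, 86.0 and 42.6 normalized counts in EtOH and 2.63, 5.01 and 5.37 in TAM. The substrate was thus near the filter in EtOH and below it in TAM (log2 fold change -3.08, adjusted p = 0.131, and 0.0543 with the block). Eln passed the filter through its EtOH libraries alone, so no conclusion is drawn from these p-values. Without both replicate 2 libraries Eln did not pass the filter and was not tested.

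**Figure D5:**
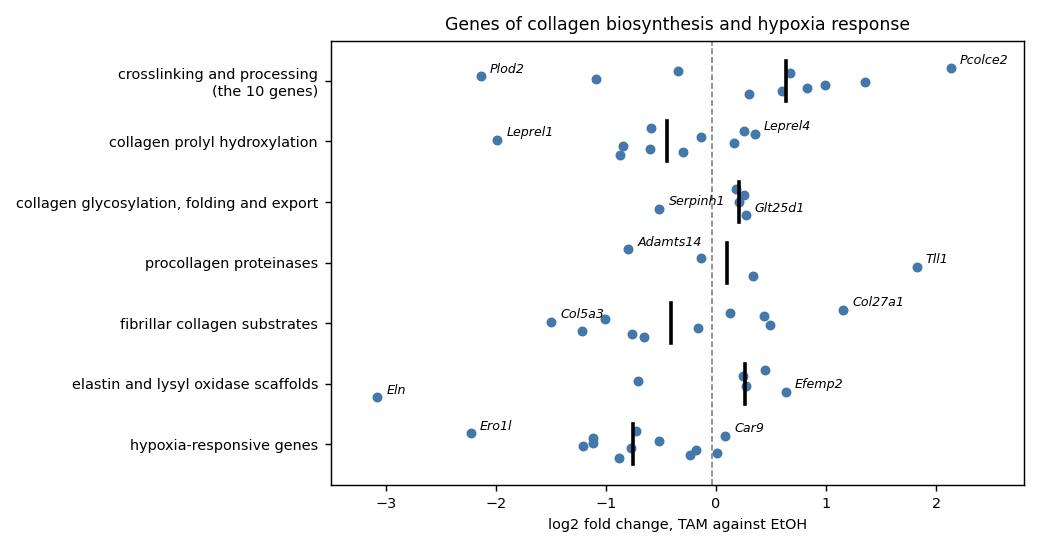
Log2 fold change, TAM against EtOH, of every tested gene in 7 lists (cell type markers are not drawn), 1 point per gene at an arbitrary height within its row, with the list's median as a black bar and the median of all genes tested (-0.03) as a dashed line. Of the 7 rows drawn, the 10 crosslinking and processing genes have the highest median, 0.63, and the hypoxia-responsive genes the lowest, -0.75, which is 0.36 without both replicate 2 libraries.

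Several genes of collagen crosslinking and hydroxylation are known targets of the hypoxia response, so 12 hypoxia-responsive genes were examined beside the 10 genes. The list summed to 23080, 184211 and 19876 normalized counts in EtOH and 23011, 39314 and 22924 in TAM, and 11 of its 12 genes were highest in EtOH replicate 2. None passed the test without or with the block. The median log2 fold change was -0.75 over all libraries, with 10 of 12 genes lower in TAM, and 0.36 without both replicate 2 libraries, with 9 of 12 higher, so the direction of the list turned on these libraries. Ero1l, an endoplasmic reticulum oxidase, had 3559, 60574 and 4587 normalized counts in EtOH and 1836, 2430 and 2155 in TAM (log2 fold change -2.23, adjusted p = 0.394, and -1.02 without both replicate 2 libraries). Car9, a carbonic anhydrase, had the highest log2 fold change of the list (0.08, adjusted p = 0.925). With the block and without both replicate 2 libraries 3 of the 12 were called, Slc2a1 (0.86, adjusted p = 0.0273) and Bnip3 (0.81, adjusted p = 0.0300) higher and Ero1l (-1.02, adjusted p = 0.0194) lower. That fit was added after seeing the data and called 855 of all 11520 genes tested in it. Without those libraries and without the block none of the 12 was called. Slc2a1, a glucose transporter, Bnip3, a mitophagy receptor, and P4ha1 and P4hb, which encode subunits of prolyl 4-hydroxylase, were chosen after their values were seen. P4ha1 and P4hb too were highest in EtOH replicate 2, with 23779 and 62928 normalized counts against at most 7959 and 23373 in the other libraries of the group. Their log2 fold changes were -0.87 and -0.84, and -0.50 and -0.51 without both replicate 2 libraries. Of the rest of the prolyl hydroxylation list, P4ha2 (7250), Leprel2 (2334) and Ppib (9732) also had their highest EtOH value in replicate 2. P4ha3 (1668), Lepre1 (1258), Leprel1 (49.6), Leprel4 (823) and Crtap (2039) had their lowest EtOH value there. Plod1 was also far highest in EtOH replicate 2. Plod2 was highest in it too, at 5827 normalized counts beside 5047 in EtOH replicate 3. Lox, Loxl1 and Pcolce2 instead had their lowest value of all libraries there, at 48741, 5372 and 64.8 normalized counts. Loxl3 (718), Loxl4 (141) and Plod3 (2188), all higher in TAM, had their highest EtOH value in replicate 2. Pcolce (18178) had its lowest EtOH value there, and Loxl2 (17697) lay between the other EtOH libraries. The part of the hypoxia-responsive genes in the differences of the 10 genes was not tested.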

How the data were processed

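The 6 libraries were made from poly(A) RNA of MSFs, 3 labelled non-senescent (EtOH) and 3 senescent (TAM), and samples were grouped by these labels. TopHat (mapping to mm9), htseq-count (RefSeq genes) and edgeR (TMM) are the tools the authors name. Versions and the strand setting are not given in the sources used here. The deposited signal is a table of normalized counts for 22162 genes, whose scaling is not stated. Read counts could not be recovered for all libraries, so count models and counting intervals were not used. Sums per library were 14952367 to 17314953. The MSFs came from 1 mouse and nothing says the samples were separate cultures, so p-values measure only the spread between these samples.

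In R 4.3.3, limma 3.58.1 with an intensity trend was fitted to log2(value + 1) over the 11877 genes with at least 1 c.p.m. (16.2 normalized counts) in at least 3 libraries, with Benjamini-Hochberg adjustment and calls at 0.05. A fold change on this scale is understated for low genes. Shares and ratios were tested with exact permutation tests in Python 3.11.15 with scipy 1.17.1. Deviations from the group means of same-numbered libraries correlated positively (r = 0.241, 0.287 and 0.422 across genes), and those of other pairs ran from -0.310 to 0.037. The deviations of a group cancel out for each gene, so positive values in same-numbered pairs partly force lower ones in the others. On this pattern the replicate number was also fitted as a block. Exon lengths, overlaps and sequences came from the mm9 genome and its annotation. The script was tested on simulated data.

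The 10 genes and all lists were chosen with earlier results of these data known. From the lists the text names genes called without or with the block, otherwise the highest and lowest log2 fold change of each list, and always Col1a1 and Col1a2. Genes named outside this rule were chosen after their values were seen. Alternatives were the block, scaling by library size, median ratios or quantiles, filters, pseudocounts, library weights and left-out libraries. Leaving out both replicate 2 libraries, and leaving libraries out under the block, was added after seeing the data.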

Additional observations from a re-analysis of the deposited data

How the results depend on the processing

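No gene of the 10 changed direction under any alternative. The count of all genes called was 29, and 192 with the replicate block, 17 without a filter, 18 with at least 10 in every library, 742 with library weights, 0 to 15 with 1 library left out, 9 without both replicate 2 libraries and 855 with the block and without both. With the block it was 181, 957 and 103 without EtOH replicates 1, 2 and 3, and 171, 839 and 101 without TAM replicates 1, 2 and 3. Of the 10 genes 1 was called, against 2 with the block, 2 with library weights, 0 with any 1 library or both replicate 2 libraries left out, 1 to 3 with the block and 1 library left out, and 3 with the block and without both. Scaling by library size moved the median of all genes from -0.03 to 0.08, and the cause of the changes above was not tested.

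With the replicate block Plod2 (-2.14) was called, as it was with library weights (-1.79), in each of the 6 fits with the block and 1 library left out (-2.24, -1.94 and -2.23 without replicates 1, 2 and 3 of either group) and with the block without both replicate 2 libraries (-1.94). The block changed no other call among the 10 genes. Loxl4 (1.39) was called with the block when EtOH replicate 2, TAM replicate 2 or both were left out. Pcolce2 lost its call without any 1 library (1.97 to 2.25), without both replicate 2 libraries (1.85), and with the block without EtOH or TAM replicate 3 (2.29). Without both replicate 2 libraries the difference in the Plod1 share was 2.17 percentage points in place of -7.33, and the ratios to type I collagen were 0.70 for Lox and 2.45 for Pcolce2. With Col3a1 as the reference the ratios were 1.52 for Lox, 1.82 for Loxl1, 2.04 for Loxl2, 1.88 for Plod3, 0.87 for Pcolce, 3.35 for Pcolce2, -0.92 for Plod2 in place of -1.43 and 0.12 for Plod1 in place of -0.38, a change of sign. Without both replicate 2 libraries the median of the hypoxia-responsive genes was 0.36 in place of -0.75, a change of sign. Genes near the filter of 16.2 normalized counts, and reads split between overlapping genes, limit the rest.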
